A study of Mus musculus with 384 samples.

Results

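Granule-gene-low neutrophils made up 75 of the 285 neutrophils, and of the 326 cells in all, that were profiled from the spinal cords of Optn knockout mice. They were chosen on their own transcripts, measured as TPM, the share of a cell's transcripts after correction for transcript length, scaled to a total of 1000000 per cell. A cell counted as a neutrophil when its TPM for S100a8, S100a9, Retnlg, Ngp, Camp, Ltf, Mmp8, Mmp9, Csf3r and Cxcr2 summed to at least 20000. A neutrophil was placed in the class when the mean log2(TPM + 1) of 8 granule genes (Camp, Ngp, Ltf, Lcn2, Chi3l3, Cd177, Itgb2l and Mmp8) was below 5 and fewer than 5 of 16 cell cycle genes were above 0. The other 210 neutrophils were 68 cells with a granule mean from 5 up to 10, called intermediate here, 120 cells at 10 or above, called granule-gene-high, and 22 cycling cells with 5 or more cell cycle genes above 0.

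Every cell carries the genotype label Optn KO and comes from spinal cord; the labels used here give no strain, age or treatment. Optn encodes optineurin, a ubiquitin-binding autophagy receptor. The tissue was dissociated with Accutase, freed of myelin and stained with antibodies for CX3CR1, CD11b and CD45, and cells were sorted individually into 4 plates for SmartSeq2, a full-length cDNA method. Plates 1 and 2 form replicate 1 and plates 3 and 4 form replicate 2. The labels do not say if they come from different mice, so that p-values measure only the spread between these 2 samples, which may be technical. No cells without the knockout, and none prepared without dissociation, were analysed here, so neither an effect of the genotype nor transcript levels in the undisturbed cord were measured.

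Neutrophils are short-lived granulocytes that arise in bone marrow from dividing precursors. The proteins of their granules are made in successive waves. Azurophil granule proteins such as myeloperoxidase come first, specific granule proteins such as lactoferrin (Ltf) and cathelicidin (Camp) follow, and gelatinase granule proteins such as Mmp9 come late, so that a mature neutrophil stores granule proteins whose mRNAs it has largely lost. Maturation also brings surface receptors such as Cxcr2, which draws the cell out of the marrow towards chemokines, and Csf3r, through which granulocyte colony-stimulating factor (G-CSF) acts. Immediate early genes, which encode transcription factors and feedback regulators, are transcribed within minutes of a stimulus and need no new protein synthesis.

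The class held similar shares of the neutrophils in both replicates. It numbered 35 of 130 neutrophils in replicate 1 (26.9%, exact 95% binomial interval 19.5% to 35.4%) and 40 of 155 in replicate 2 (25.8%, 19.1% to 33.4%), which average to 26.4% ± 0.790 (SD, n = 2). On plates 1 to 4 the share was 26.9%, 27.0%, 23.4% and 28.2%. The intervals cover counting error only.

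Depth and other cell types set limits that touch the results below. Sequencing depth cannot be read from TPM. Genes above 0 per cell, used in its place, had a median of 1352 in the class (863 to 2366), 1506.5 in intermediate, 1939.5 in granule-gene-high and 2797 in cycling cells. The rule's own genes took a mean of 11.5% of TPM in the class, 24.6% in intermediate cells and 32.2% in the other neutrophils together, and since TPM is a share of a fixed total, every other gene had more room in the class. Optn was above 0 in 0 cells. Although the series title names microglia, 0 of the 75 cells had 3 or more of 13 microglia markers. Of the 13, 9 were at 0 in all 75 cells (Sall1, C1qa, C1qb, C1qc, Trem2, Gpr34, Fcrls, Olfml3 and Slc2a5), which allows up to 4.0% of cells with a value above 0. The other 4 were above 0 in some cells: P2ry13 in 10 (up to 2810 TPM), P2ry12 in 2, Tmem119 in 1 and Siglech in 1. Summed over the 13, the mean was 123 TPM in the class, 42.3 in intermediate, 14.6 in granule-gene-high and 0 in cycling cells, and the range in the class was 0 to 2810 TPM (median 0). Among B cell markers, 2 cells (on plates 1 and 4) had 3 or more of 7 above 0, with 2366 and 2162 genes detected, the 2 highest counts of the class; counts of called genes are given without these 2 cells as well. Monocyte markers overlap with neutrophil genes: 20 of the 75 cells had 3 or more of 13 above 0, against 19 of 68 intermediate and 7 of 120 granule-gene-high cells, and 10 of the 13 were above 0 in at least 1 class cell. S100a4, F13a1 and Vcan were at 0 in all 75, while Ms4a4c was above 0 in 2 of them and in 0 other neutrophils. The summed monocyte markers ranged from 0 to 4940 TPM in the class (median 690.4), from 0 to 9139 TPM in the intermediate cells (median 1826) and from 59.2 to 10954 TPM in granule-gene-high cells (median 2728). No cell of the class had 3 or more markers of border macrophages, T and NK cells, erythroid cells, eosinophils, basophils and mast cells, dendritic cells or neural and vascular cells. No doublet caller was run.

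The genes of the rule describe the class and are given without a test. Mean TPM of Camp was 1.65 and 2.03 in replicates 1 and 2, against 2489 and 917 in intermediate and 26438 and 22058 in granule-gene-high cells. Ltf, lactoferrin, stood at 1.26 and 1.96 TPM, against 32.6 and 310.3 in intermediate and 24900.0 and 23196 in granule-gene-high cells. Itgb2l, an integrin beta subunit of immature neutrophils, was listed at 0 in all 75 cells and was above 0 in 34 of 68 intermediate cells. Not all granule transcripts were near 0: Lcn2 (lipocalin 2) averaged 2362 and 2194 TPM and was above 0 in 50 of 75 cells, and Mmp8 (neutrophil collagenase) averaged 2879 and 2997 TPM in 64 cells. The late gelatinase gene Mmp9 averaged 3666 and 3260.3 TPM, against 5635 and 5209 in intermediate and 4149 and 4603 in granule-gene-high cells.

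Neutrophil identity genes were present at the same time. S100a8, a subunit of calprotectin, was above 0 in all 75 cells at 39949 and 35014 TPM, below the 72725 and 71199 TPM of the other neutrophils. Csf3r was above 0 in all 75 cells, at 2866 and 3451 TPM against 847 and 1255 in intermediate and 286 and 325 in granule-gene-high cells. Cxcr2 was above 0 in 74 cells, at 2171 and 2116 TPM against 1959 and 1696 in intermediate and 539 and 801 in granule-gene-high cells. Retnlg, a resistin-like protein of neutrophils, did not follow that order: it averaged 18108 and 11826 TPM in the class, 42759 and 44311 in intermediate and 16034 and 16784 in granule-gene-high cells. The early azurophil genes Mpo, Elane, Prtn3 and Ctsg were listed at 0 in all 75 cells. S100a8, Retnlg, Cxcr2, Csf3r and the granule genes were used by the rule. Their levels are therefore no check of neutrophil identity or of the label of mature neutrophils. Mpo and Ctsg were at 0 in every neutrophil, cycling cells included, and do not separate the classes. The cells are therefore called by their granule genes here, and their maturity was not measured independently.

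**Figure D1:**
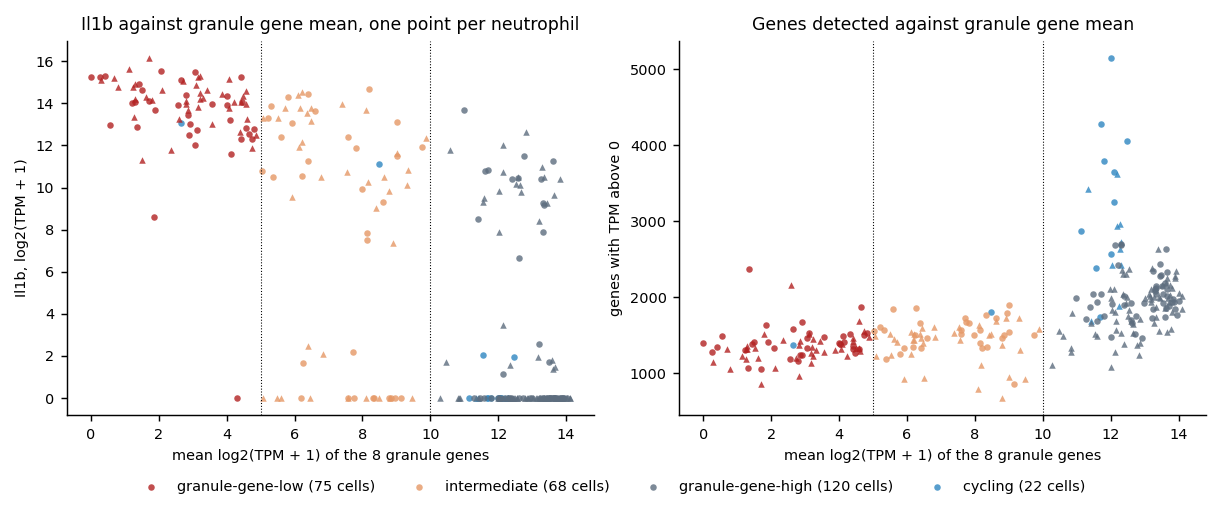
Each point is 1 of the 285 neutrophils, a circle for replicate 1 and a triangle for replicate 2, coloured by class; the horizontal axis is the mean log2(TPM + 1) of the 8 granule genes, and dotted lines mark 5 and 10. The left panel plots Il1b as log2(TPM + 1), which is above 0 in 74 of the 75 granule-gene-low cells and in 41 of the 120 granule-gene-high cells; the right panel plots the number of genes with TPM above 0.

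The granule mean of the class spread from 0 to 4.87 with a median of 2.90. The members nearest the threshold stood at 4.87, 4.81 and 4.74, and the nearest cells outside it at 5.04, 5.07 and 5.08, so that the boundary runs through a continuous range, as the plot of Il1b against the granule mean shows. Of the 75 cells, 15 had none of the cell cycle genes above 0, 31 had 1, 21 had 2, 5 had 3 and 3 had 4. The members with the smallest neutrophil sums had 20455, 20471 and 29044 TPM, and the largest sums outside the rule were 16516, 16361 and 15745 TPM.

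Egr1, Fgl2, Tgif1 and Prr5l were proposed as markers of the class from these same cells, and are therefore described without a test. Egr1, an immediate early zinc finger transcription factor, averaged 422 and 1058 TPM in the class against 33.4 and 14 in intermediate and 4.56 and 8 in granule-gene-high cells. It was above 0 in 29 of 75 cells, 6 of 68 intermediate and 9 of 120 granule-gene-high cells, and its highest value in a class cell was 6606 TPM. Fgl2 (fibrinogen-like 2, chr5:21372642-21378374, plus strand, GRCm38) averaged 486 and 785 TPM against 76.8 and 67.5 in intermediate and 5.91 and 10.7 in granule-gene-high cells, and was above 0 in 46 cells. Tgif1, a homeobox repressor that limits TGF-beta responses (chr17:70844205-70853546, minus strand), averaged 296 and 260.03 TPM against 3.02 and 0 in intermediate and 0.701 and 3.72 in granule-gene-high cells. It was above 0 in 22 cells of the class and in 2 intermediate, 4 granule-gene-high and 0 cycling cells. Prr5l, a binding partner of mTOR complex 2 (chr2:101714285-101883027, minus strand), averaged 63.2 and 81.6 TPM against 1.37 and 8.97 in intermediate and 0.0939 and 0.0961 in granule-gene-high cells, and was above 0 in 28 cells. These 4 genes thus separated the class averages in both replicates, but Egr1, Tgif1 and Prr5l were each listed at 0 in the majority of its cells. Cass4, a scaffold protein of the Cas family, differed between the replicates, with 96.3 and 14 TPM in the class against 5.07 and 1.04 in the other neutrophils. Cass4 was above 0 in 7.14% of the other neutrophils. It passed the filter given below only through the class, and was not called.

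The first comparison set the class against all other neutrophils. Mean TPM was taken over the cells of each group in each replicate, and log2(mean TPM + 1) was compared in limma, blocking on replicate, with p-values adjusted by the Benjamini-Hochberg method, so that a fold below is a log2 difference on this scale, given with its standard error after the ± sign, which understates the change of genes with low values, and an adjusted p is from this fit. The genes of the rule were left out of the test. Genes needed a mean of at least 5 TPM and a value above 0 in at least 10% of the cells compared. A gene that passed this filter only through the group where it was high had to differ, so such genes are named with their levels and without a fold or p. Of 3997 genes tested, 159 were higher (3.98%) and 105 lower (2.63%) at an adjusted p below 0.05, and 263 of these 264 had the same sign on all 4 plates. The median over all tested genes was 0.16; with TPM rescaled to a common total without the rule's genes and Rn45s (the ribosomal RNA precursor) it was -0.24, a shift of -0.39, and the share of calls that were higher went from 60.2% to 34.2%. Averages of log values per cell gave 18.0%. Small folds in either direction are read against that shift. Without the 2 cells with B cell markers, 53 genes were higher and 22 lower.

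Of the 20 immediate early genes other than Egr1, which was a proposed marker, 13 were tested, 9 were higher and 0 lower, against the background of 3.98% of all tested genes, and their median fold was 1.93. All 13 folds were above 0, also after the rescaling, which left 7 calls. Without the 2 cells with B cell markers there were 7 calls among 12 tested, with a granule mean below 4 there were 4 of 13, and with a neutrophil sum of at least 50000 there were 4 of 11. Atf3, a stress-induced transcription factor of the ATF/CREB family (chr1:191170296-191218039, minus strand), averaged 1064 and 735 TPM in the class and 10.5 and 2.44 TPM in the other neutrophils. It passed the filter only through the class and so had to differ. Its call is among the 9, and its fold enters the median of 1.93. Atf3 was above 0 in 31 of the 75 cells, in 3 of 68 intermediate cells and in 0 granule-gene-high or cycling cells. By plate its mean in the class was 1401, 708, 523 and 908 TPM, against 0, 21.6, 4.76 and 0 TPM in the other neutrophils, so that the class mean was the higher one on each plate.

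AP-1 subunits and feedback genes at high levels followed. Fos, an AP-1 subunit, averaged 9232 and 10634 TPM against 2905 and 3115 (fold 1.72 ± 0.09, adjusted p = 0.00265) and was above 0 in all 75 cells, from 445 to 45368 TPM with a median of 7469. Junb, its partner, averaged 10915 and 14003 TPM against 3243 and 3060.5 (fold 1.97 ± 0.13, adjusted p = 0.00466). Dusp1, a phosphatase that switches off MAP kinases, averaged 10387 and 13877 TPM against 2005 and 2225, and 855 and 1266 in granule-gene-high cells (fold 2.51 ± 0.11, adjusted p = 0.00235). Both replicates of the class lay above both replicates of the others for each of these genes. Btg2, an antiproliferative factor tied to mRNA deadenylation, averaged 2863 and 3958 TPM against 638 and 713 (fold 2.32 ± 0.16, adjusted p = 0.00466). Zfp36 (tristetraprolin), which binds AU-rich elements and speeds the decay of cytokine mRNAs, averaged 1523 and 1698 TPM against 413 and 430.2 (fold 1.93 ± 0.18, adjusted p = 0.00873).

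Nr4a1, a nuclear receptor induced by stimulation, averaged 1444 and 1240.0 TPM in the class against 332 and 326 (fold 2.02 ± 0.20, adjusted p = 0.0097). Fosb, a further AP-1 subunit, was lower in level but further apart, at 69 and 141 TPM against 5.47 and 8.89 (fold 3.64 ± 0.61, adjusted p = 0.0322), and was above 0 in 46 cells. Outside the list, 2 regulators of the stress and cytokine response were among the named genes. Ppp1r15a (GADD34), which directs protein phosphatase 1 to the translation factor eIF2-alpha, averaged 819 and 1088 TPM against 61.3 and 38.2 (fold 4.26 ± 0.37, adjusted p = 0.00873). Socs3, which restrains signalling through the G-CSF receptor and gp130, averaged 217 and 355 TPM against 18.5 and 17.9 (fold 3.86 ± 0.43, adjusted p = 0.0152). Of the listed genes that did not pass, Ier2 stood at 946 and 924 TPM against 498 and 542 (adjusted p = 0.0659) and Klf6 at 305 and 215 against 147 and 107 (adjusted p = 0.126).

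The promoters of these genes were read for short motifs. The windows are the 250 bases before the RefSeq transcription start (GRCm38.p6), written in the direction of the gene, and were searched on both strands after the values were known. The genes searched were the called immediate early and inflammatory genes and the 12 named higher genes, proposed markers included, 28 in all, of which 25 matched a promoter. The cAMP response element TGACGTCA, a site of ATF/CREB factors, was found in 3 of 25 (12%), against 1.77% of 27025 genes. An NF-kB motif was found in 8 of 25 (32.0%), against 8.23% of all genes, the AP-1 motif TGANTCA in 1 (4.0%, against 7.82%) and the CArG box of serum response factor in 1 (4.0%, against 1.62%). A match is a description of the letters and shows no binding. The set was drawn in part from a list named for NF-kB, and no share is given for uncalled members of the lists. The differences from all genes are therefore not read as results about the class. The 3 promoters with the cAMP response element are shown first, as they belong to genes described above, and that of Cxcl2, described below, after them; capitals mark the matched motif.
Dusp1 promoter, chr17:26508473-26508722, minus strand: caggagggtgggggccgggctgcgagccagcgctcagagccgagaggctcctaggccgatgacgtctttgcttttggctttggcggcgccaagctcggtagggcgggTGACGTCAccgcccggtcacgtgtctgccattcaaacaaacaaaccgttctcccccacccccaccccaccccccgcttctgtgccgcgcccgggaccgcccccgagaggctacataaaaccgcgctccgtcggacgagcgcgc
Btg2 promoter, chr1:134079156-134079405, minus strand: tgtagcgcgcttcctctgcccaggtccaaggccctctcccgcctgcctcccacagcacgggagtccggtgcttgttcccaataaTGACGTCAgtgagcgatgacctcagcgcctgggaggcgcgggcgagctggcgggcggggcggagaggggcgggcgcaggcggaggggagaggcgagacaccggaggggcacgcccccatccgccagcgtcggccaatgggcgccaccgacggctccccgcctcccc
Ppp1r15a promoter, chr7:45526269-45526518, minus strand: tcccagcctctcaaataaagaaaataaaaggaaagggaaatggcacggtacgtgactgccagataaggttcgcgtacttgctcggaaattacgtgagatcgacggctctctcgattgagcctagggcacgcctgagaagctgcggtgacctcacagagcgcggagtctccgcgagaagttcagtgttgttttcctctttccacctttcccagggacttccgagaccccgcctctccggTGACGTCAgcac
Cxcl2 promoter, chr5:90903649-90903898, plus strand: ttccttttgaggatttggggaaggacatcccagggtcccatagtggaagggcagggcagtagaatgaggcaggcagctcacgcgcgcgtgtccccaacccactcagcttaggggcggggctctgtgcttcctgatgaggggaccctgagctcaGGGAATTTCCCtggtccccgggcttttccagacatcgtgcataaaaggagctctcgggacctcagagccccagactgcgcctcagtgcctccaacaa
The element begins 143 bases before the start of Dusp1, 166 bases before that of Btg2 and 12 bases before that of Ppp1r15a. In Cxcl2 the capitals hold 2 overlapping NF-kB matches, which begin 97 and 96 bases before the start.

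**Figure D2:**
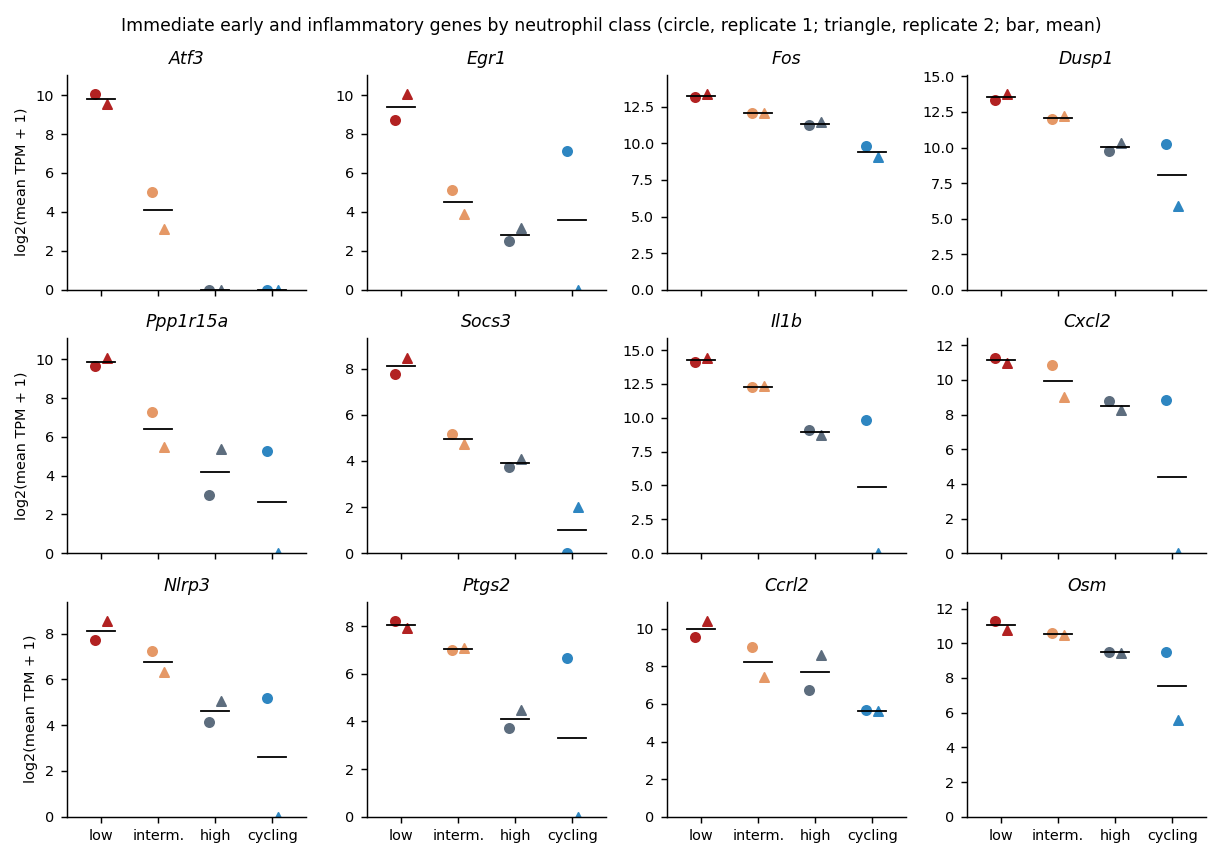
Mean expression of 12 immediate early and inflammatory genes, as log2(mean TPM + 1), in granule-gene-low, intermediate, granule-gene-high and cycling neutrophils; circles are replicate 1, triangles replicate 2 and bars the mean of the 2. For each of these genes both class values lie above the values of the granule-gene-high cells, and Atf3 is at 0 in granule-gene-high and cycling cells.

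Of the 21 inflammatory and NF-kB genes, 17 were tested, 9 were higher and 0 lower (background 3.98%), with a median fold of 1.11 and 15 of 17 folds above 0. After the rescaling 1 call was left, with 13 folds above 0 and a median of 0.79; without the 2 cells with B cell markers 3 calls were left, with 15 folds above 0 and a median of 1.13. A granule mean below 4, a neutrophil sum of at least 50000 and averages matched on genes detected (cells above and below the median weighted equally) each left 1 call. Il1b, the secreted cytokine interleukin-1 beta (chr2:129364570-129371139, minus strand), averaged 17452 and 22177 TPM in the class, 4828 and 5189.6 in intermediate and 548 and 428 in granule-gene-high cells. Within the class it ranged from 0 to 73572 TPM with a median of 17157 and was above 0 in 74 of 75 cells. Its fold against all other neutrophils was 3.33 ± 0.13, adjusted p = 0.00235. Nlrp3, the inflammasome sensor that leads to cleavage of pro-IL-1 beta, averaged 211 and 371 TPM against 63.6 and 44.6 (fold 2.37 ± 0.45, adjusted p = 0.0419). Ptgs2, the inducible cyclooxygenase of prostaglandin synthesis, averaged 293 and 238 TPM against 61.6 and 54.8 (fold 2.17 ± 0.35, adjusted p = 0.0306).

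Cxcl2, a neutrophil-attracting chemokine, averaged 2500.5 and 2025 TPM in the class against 917 and 349 in the other neutrophils (fold 1.99 ± 0.28, adjusted p = 0.0271). Gadd45b, a stress-inducible gene, averaged 759 and 876 TPM against 148 and 49.7 (fold 3.23 ± 0.47, adjusted p = 0.028). Ccrl2, a non-signalling chemerin receptor, averaged 754 and 1345 TPM against 235 and 295 (fold 1.93 ± 0.24, adjusted p = 0.0198). The remaining 3 calls were Nfkbia, the NF-kB inhibitor, with a fold of 1.23, Osm, the cytokine oncostatin M, with 1.17, and Il1r2, the decoy receptor for interleukin-1, with 1.02. Of the listed genes with the highest levels that did not pass, Clec4e stood at 856 and 1587 TPM against 823 and 1167 and Cd14 at 1129 and 590.04 against 481 and 549. Tnf was singled out after its values were seen because it is a classical NF-kB target. It was not called, and it passed the filter only through the others. Its mean was 90.4 and 77.4 TPM in the class and 119 and 98.5 TPM in the others. It was above 0 in 5 of 75 class cells, 15 of 68 intermediate and 33 of 120 granule-gene-high cells.

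Cells of the class differed among themselves in the same genes. The mean log2(TPM + 1) of the 21 immediate early genes ranged from 2.68 to 8.05 in the class (median 4.70), against 0.708 to 5.30 in intermediate cells (median 3.61). The 21 include Egr1, a proposed marker, and Atf3, which passed the filter only through the class. The values of this mean are therefore a description. Between 5 and 16 of the 21 genes were above 0 in a class cell (median 9), against 3 to 11 in an intermediate cell (median 8). Across cells within a plate, Spearman's correlation of this mean with the mean of the inflammatory genes was 0.73, 0.28, 0.60 and 0.53 on plates 1 to 4 (n = 18, 17, 18 and 22 cells). The correlation of the immediate early mean with the granule mean was -0.65, -0.29, -0.55 and -0.41, and with the number of genes detected -0.15, -0.23, -0.61 and 0.093. These are descriptions across cells that share a library preparation and a fixed TPM total. Atf3 was above 0 in 18 of the 29 cells with Egr1 above 0 and in 13 of the 46 without it, and the median number of genes detected was 1329 and 1357.5 in these cells.

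The class was also divided by the granule mean, the measure that chose it, so the values here are a description. Egr1 and Fgl2 were proposed markers, and Atf3 passed the filter only through the class. On average, Atf3, Egr1 and Il1b were higher in the cells with less granule RNA. Cells with a granule mean below 2.5 (13 in replicate 1 and 14 in replicate 2) were set beside those from 2.5 up to 5 (22 and 26). Atf3 averaged 1879 and 1497 TPM in the former, in replicates 1 and 2, and 583 and 325 TPM in the latter. Egr1 averaged 778 and 2258 TPM against 211 and 412 TPM, and Il1b 23393 and 27456 TPM against 13941 and 19334 TPM. Cxcl2 and Fgl2 did not follow in both replicates: Cxcl2 averaged 2918 and 1298 TPM against 2254 and 2417 TPM, and Fgl2 788 and 768 TPM against 307 and 794 TPM. S100a8, a neutrophil gene of the rule, was lower in the former, at 28483 and 26075 TPM against 46724 and 39827 TPM. S100a9, Retnlg and Lyz2 were lower there as well, so that other genes had more room in the fixed TPM total. What this adds to the differences was not tested. The median number of genes detected differed little, at 1392 and 1275.5 against 1405.5 and 1344.5.

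**Figure D3:**
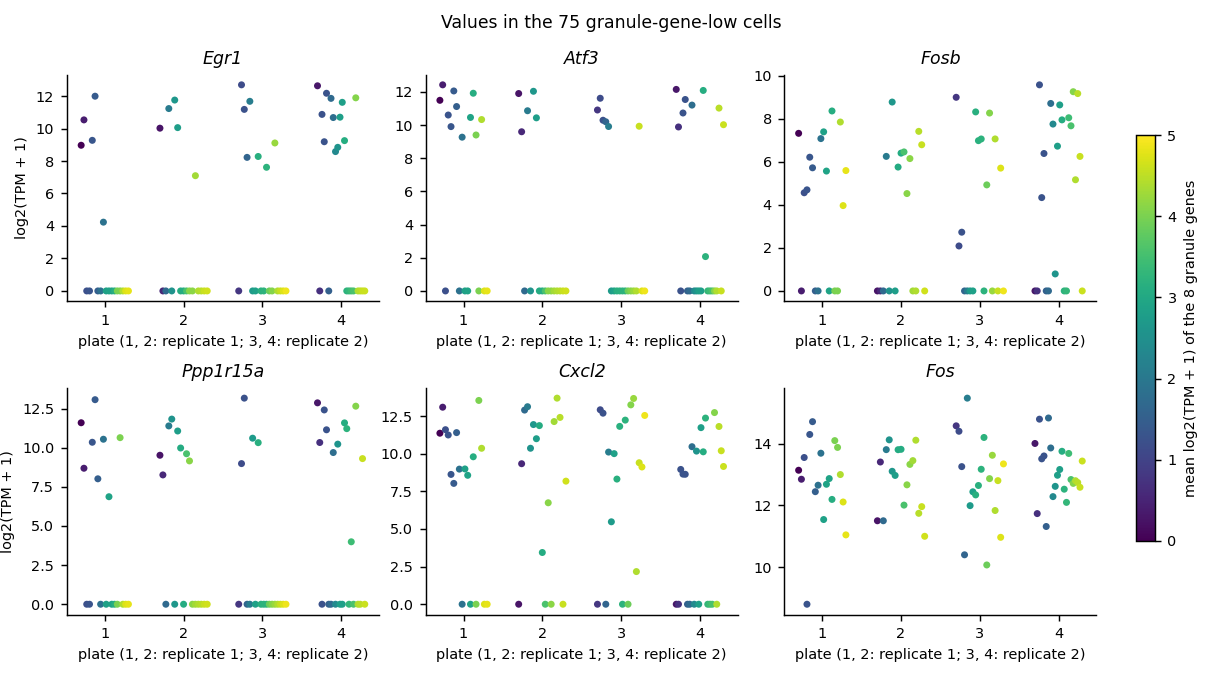
Log2(TPM + 1) of 6 genes in the 75 granule-gene-low cells by plate; each point is 1 cell, ordered from left to right within a plate and coloured by its mean log2(TPM + 1) of the 8 granule genes. Fos is above 0 in every cell, while Egr1 is above 0 in 29 cells and Atf3 in 31, at high values where present.

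Granule and immature-stage genes that the rule did not use were lower in the class. Of the 20 listed, 19 were tested, 13 were lower (background 2.63%) and 1 was higher, with a median fold of -1.69. After the rescaling 12 were lower, without the 2 cells with B cell markers 8, with a granule mean below 4 there were 5, and with a neutrophil sum of at least 50000 there were 3. These genes are of the same kind as those that chose the class, so their direction is no independent result. Ifitm6, a membrane protein of the IFITM family, averaged 134 and 226 TPM against 2190.0 and 2310.1 (fold -3.68 ± 0.24, adjusted p = 0.00466). Orm1, the acute phase glycoprotein orosomucoid, averaged 0 and 0.815 TPM against 101 and 86.4 and passed the filter only through the others, as did Serpinb1a. Both therefore had to differ, and both are among the 13 lower calls and in the median. Adpgk, an ADP-dependent glucokinase, averaged 205 and 104 TPM against 1744 and 2027 (fold -3.68 ± 0.33, adjusted p = 0.00873).

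Serpinb1a, an inhibitor of neutrophil serine proteases, averaged 58 and 35.1 TPM in the class and 74 and 72.3 in intermediate cells, against 709.5 and 695 in granule-gene-high cells. Cybb, the catalytic subunit of the NADPH oxidase, averaged 97 and 46.2 TPM against 744 and 758 (fold -3.47 ± 0.37, adjusted p = 0.0136). It was the only one of the 7 NADPH oxidase genes tested that passed (background 2.63% lower), and the median fold of the 7 was -0.19. Lyz2, lysozyme, remained abundant at 14829 and 15845 TPM but was lower than in the others at 31293 and 31889 (fold -1.04 ± 0.06, adjusted p = 0.00265). Anxa1, the annexin that limits neutrophil recruitment, averaged 2458 and 2309 TPM against 8822 and 9701 (fold -1.96 ± 0.11, adjusted p = 0.00265). The lower call of Tuba1b, a tubulin, rested on the cycling cells: its fold was -2.16 against all others and 0.46 against the non-cycling ones. The member that was higher was Arg2, a mitochondrial arginase, at 1441 and 949 TPM against 411 and 374 (fold 1.57 ± 0.22, adjusted p = 0.0247). Hp (haptoglobin) and Pglyrp1 (a peptidoglycan recognition protein), the most abundant members that did not pass, stood at 5615 and 7230.2 TPM against 4976 and 5224 and at 1595 and 2137 against 3529.7 and 3106. Of 10 azurophil and precursor genes 2 were tested (backgrounds 3.98% higher and 2.63% lower). Fcnb (ficolin B) was listed at 0 in all 75 cells and passed the filter only through the others. It had 329 and 251 TPM in the others and 1717 and 1761 TPM in cycling cells. Srgn, the proteoglycan that packs granule proteases, was higher at 7797 and 7567 TPM against 2062 and 2142 (fold 1.87 ± 0.10, adjusted p = 0.00265).

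Surface receptors were counted over 4 lists: chemoattractant receptors, adhesion genes, cytokine and growth factor receptors, and pattern recognition receptors. Of 44 genes tested, 12 were higher (background 3.98%) and 1 lower (background 2.63%), with a median fold of 1.07. After the rescaling 3 were higher and 1 lower, and without the 2 cells with B cell markers 3 and 0. With a granule mean below 4, and with a neutrophil sum of at least 50000, limma called 0 of the 44. Selplg (the selectin ligand PSGL-1), which lets neutrophils roll on endothelium, averaged 2233 and 2583 TPM in the class against 731 and 739 in the others (fold 1.71 ± 0.15, adjusted p = 0.00873). Clec4d and Clec7a (Dectin-1) are C-type lectins that bind fungal sugars. Clec4d averaged 1914 and 1816 TPM against 146 and 128 in granule-gene-high cells, and Clec7a 822 and 1056 against 2.83 and 14.5. Over all intermediate cells Clec4d averaged 1179 TPM (above 0 in 88.2%) and Clec7a 410 TPM (54.4%). Neither gene was called against the intermediate cells. The folds of Clec4d and Clec7a against all others were 1.99 ± 0.18 and 2.57 ± 0.36, with adjusted p = 0.00901 and 0.0271. Tnfrsf1a and Tnfrsf1b, the TNF receptors, had folds of 1.29 ± 0.22 and 2.52 ± 0.42, with adjusted p = 0.0324 and 0.0322.

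Among chemoattractant receptors the directions were mixed. C5ar1, the receptor for complement C5a, averaged 1783 and 1789 TPM against 919 and 909 (fold 0.97 ± 0.15, adjusted p = 0.0297). Ptafr, the receptor for platelet-activating factor, averaged 351 and 285 TPM against 90.2 and 85 (fold 1.84 ± 0.32, adjusted p = 0.0333), and Ccr1, a receptor for CCL chemokines, 1008 and 1009 TPM against 337 and 456 (fold 1.36 ± 0.22, adjusted p = 0.031). Ltb4r1, the leukotriene B4 receptor, went the other way, at 118 and 217 TPM against 729.7 and 703 (fold -2.15 ± 0.32, adjusted p = 0.0295). Some genes stand on more than 1 list. Ltb4r1 is also among the lower calls of the granule and immature-stage genes, and Il1r2 is counted with both the inflammatory and the surface genes. The integrin subunit Itgb2 stood at 1205 and 1018 TPM against 1296 and 1377 and the receptor Trem1 at 1988 and 1533 against 1045 and 1017, and neither passed. Csf1r, the receptor of the macrophage growth factor CSF1, and the lysosomal glycoprotein Cd68, both on the monocyte list, were higher, with folds of 1.94 ± 0.37 and 2.25 ± 0.35 and adjusted p = 0.0426 and 0.0295. On the same list the monocyte and neutrophil surface gene Ly6c2 was lower, at 627 and 156 TPM against 2632 and 2327 (fold -2.98 ± 0.43, adjusted p = 0.0271); leaving out the cells with 3 or more monocyte markers gave 184 genes higher and 174 lower in all, with 9 of 13 immediate early genes other than Egr1, 10 of 17 inflammatory and 12 of 45 surface genes higher.

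**Figure D4:**
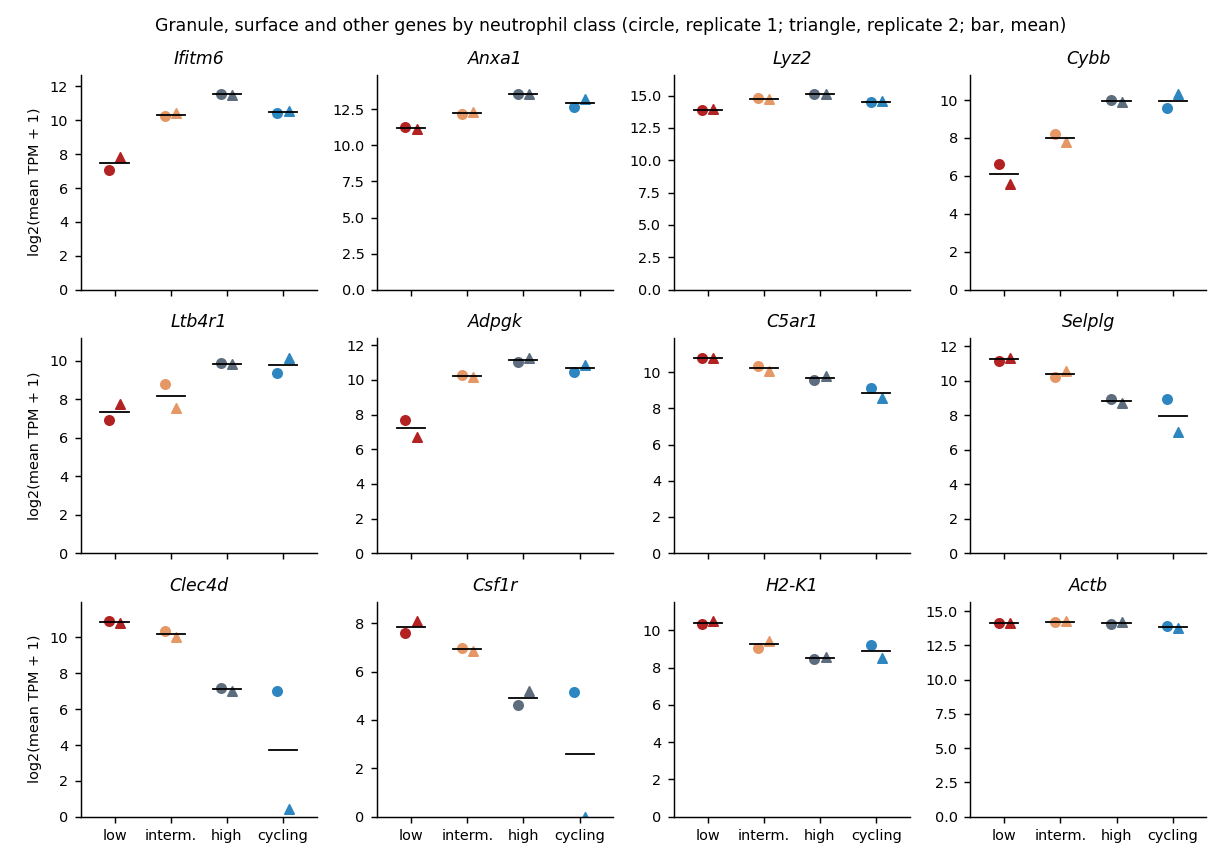
Mean expression of 12 further genes, as log2(mean TPM + 1), by neutrophil class; circles are replicate 1, triangles replicate 2 and bars the mean of the 2. Ifitm6, Anxa1, Lyz2, Cybb, Ltb4r1 and Adpgk are lower in the granule-gene-low class than in granule-gene-high cells, Selplg, Clec4d, C5ar1, Csf1r and H2-K1 are higher, and Actb differs little between classes.

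Of 7 MHC and antigen presentation genes tested, 3 were higher (background 3.98%), the median fold was 0.84 and all 7 folds were above 0, also after the rescaling, which left 1 call. Without the 2 cells with B cell markers 2 were called, with a granule mean below 4 limma called 0, and with a neutrophil sum of at least 50000 it called 1. H2-K1, a classical class I heavy chain, averaged 1296 and 1435 TPM against 448 and 474 (fold 1.56 ± 0.18, adjusted p = 0.0152). The other 2 were H2-D1 and the light chain B2m, with folds of 1.28 ± 0.10 and 0.84 ± 0.16. Reads from related class I genes can be shared between rows, so these values are uncertain. Of 13 interferon-induced genes tested, Ifitm2, Irf1, Slfn2 and Oasl2 were higher, with folds of 1.10, 2.09, 1.03 and 2.31, and 0 were lower (backgrounds 3.98% and 2.63%). The median was 0.76 and 8 of 13 folds were above 0. Without the 2 cells with B cell markers 1 was called, with a granule mean below 4 or a neutrophil sum of at least 50000 limma called 0, after the rescaling 0 were called (306 genes higher and 597 lower in all at an unadjusted p below 0.05 in limma), and as an average of log values the fold of Slfn2 was -0.029. Ifitm3, the most abundant interferon-induced member that did not pass, stood at 1191 and 1212 TPM against 1520.3 and 1331.

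The lists of general cell functions held shares of calls that are not read as results about them, against backgrounds of 3.98% higher and 2.63% lower. Among cytosolic ribosomal proteins, Rps9 and Rpl10 were higher of 34 tested and the median fold was 0.40, but -0.11 after the rescaling, so that no direction is given for the family. Of 19 actin and motility genes 1 was higher (Actg1, 0.45), and Actb, beta-actin, stood at 17724 and 17704 TPM against 17510.0 and 18487. Of 18 glycolysis genes 1 was lower (Gapdh, -0.58), of 18 autophagy and TNF signalling genes Map1lc3b (1.36) and Tnfrsf1a were higher, and of 13 myeloid transcription factors Mxd1 (0.87), a MYC antagonist of differentiated cells. For 26 oxidative phosphorylation, 14 secretory pathway, 13 survival and cell death and 6 heat shock genes limma called 0, with 3, 2, 5 and 1 at an unadjusted p below 0.05 and median folds of 0.095, 0.093, 0.87 and 0.54.

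**Figure D5:**
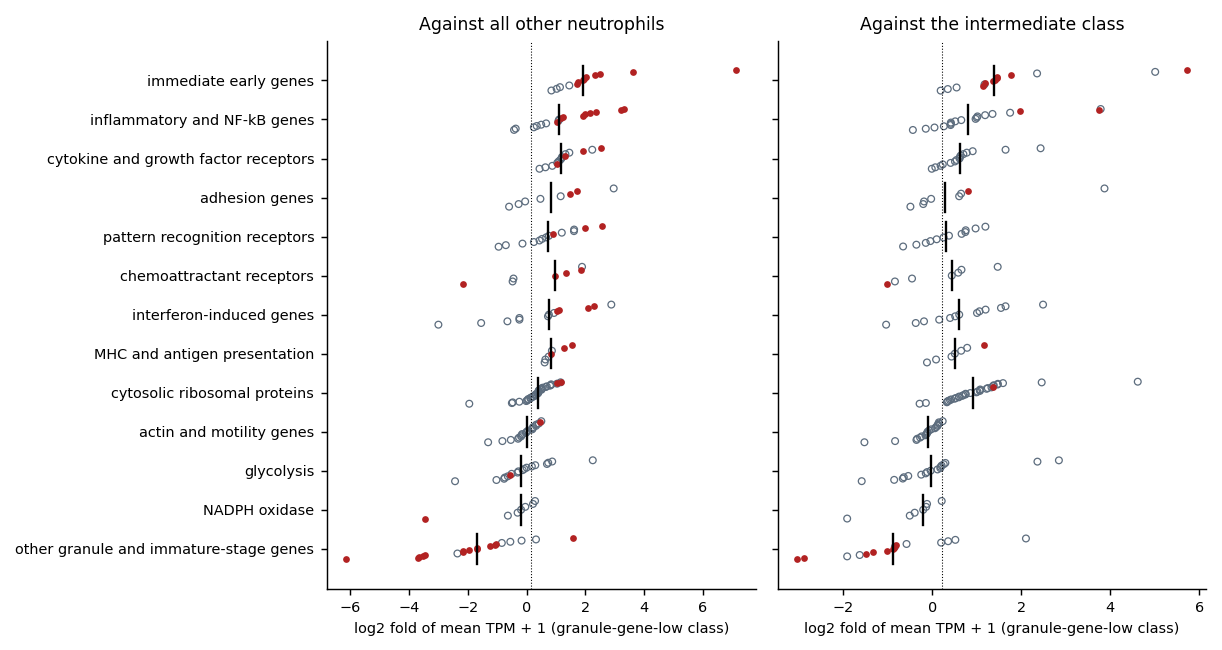
Log2 folds of the members of 13 gene lists in the granule-gene-low class against all other neutrophils (left) and against the intermediate class (right); each circle is 1 tested gene, filled where the adjusted p was below 0.05, thick bars are list medians and the dotted line is the median of all tested genes (0.16 and 0.23); proposed markers are left out. Immediate early genes lie to the right of the dotted line in both panels but for 1 gene on the right, and most other granule genes lie to its left. Genes that passed the filter only through 1 group, such as Atf3, are drawn as well.

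Outside the lists, the named genes with the largest positive folds included 3 members of the SIRP-beta family, paired receptors of myeloid cells whose copies are nearly identical. LOC100038947 averaged 521 and 711 TPM in the class against 33.4 and 23.8 (fold 4.38 ± 0.39, adjusted p = 0.00873), Sirpb1a 208 and 392 against 21.6 and 8.23 and Gm5150 833 and 736 against 52.2 and 83.5. Reads from such copies can be shared between rows, so the single values are uncertain. Gm2a, the lysosomal activator of ganglioside breakdown, averaged 254 and 585 TPM against 22.2 and 15.6 (fold 4.30 ± 0.53, adjusted p = 0.0195). St3gal6, a sialyltransferase that helps to build selectin ligands, averaged 201 and 120.3 TPM against 13.5 and 7.14 and was above 0 in 2 of 120 granule-gene-high cells; it and Sirpb1a passed the filter only through the class. Of the 9 named higher genes other than Egr1, Fgl2 and Prr5l, 7 were called after the rescaling, 6 without the 2 cells with B cell markers, 2 with a granule mean below 4 and 0 with a neutrophil sum of at least 50000 (7 tested). These 9 were picked for their calls and large folds, and Atf3, Sirpb1a and St3gal6 among them passed the filter only through the class. The counts therefore describe how calls move with the settings and are no support.

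The 12 named lower genes were close to 0 in the class and passed the filter only through the others, so their values are a description. Olfml2b, an olfactomedin-like secreted protein, averaged 0.0566 and 0 TPM against 167 and 124 and was above 0 in 1 class cell and 59 of 120 granule-gene-high cells. Inhba, the beta-A subunit of activin, averaged 0.137 and 0.116 TPM against 160.3 and 101, and Lbp, the lipopolysaccharide-binding protein, 0 and 0.028 TPM against 80.6 and 77.5. The transporter gene Abca13, the mTOR complex subunit Mlst8 and the noncoding RNA 9830166K06Rik were listed at 0 in all 75 cells, with 26.3 and 32.8, 35.3 and 44.8 and 30 and 34.8 TPM in the others. Lrmp, Zmpste24 (a protease that processes prelamin A), Golim4, Cnot7 (a deadenylase), Arhgef6 and Slc17a9 (the vesicular nucleotide transporter) were each above 0 in 1 or 2 class cells.

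The second comparison set the class against the intermediate cells alone, whose number of genes detected was closer to its own (medians of 1352 and 1506.5). Of 3072 genes tested, 60 were higher (1.95%) and 24 lower (0.781%), and the median of all genes was 0.23. Since this comparison shares the class cells with the first, the values are given side by side and not as a second support. Without the 2 cells with B cell markers 24 were higher and 10 lower, and without the cells with 3 or more monocyte markers 5 and 4.

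Of 14 immediate early genes tested other than Egr1, 8 were higher and 0 lower than in intermediate cells (background 1.95%), with a median fold of 1.39. After the rescaling 7 were called, with a granule mean below 4 there were 6, without the 2 cells with B cell markers 7 of 13, and without the cells with 3 or more monocyte markers 3 of 15. Atf3, which is among these 8 calls, passed the filter only through the class and so had to differ. Its mean was 31.1 and 7.8 TPM in intermediate cells. Fos, at 4392 and 4372 TPM in intermediate cells, had a fold of 1.18 ± 0.14, adjusted p = 0.000116, and Dusp1, at 4133 and 4664 TPM, 1.45 ± 0.14, adjusted p = 1.09e-05. Ppp1r15a had a fold of 3.50 ± 0.51, adjusted p = 0.00259, and Gm2a 3.79 ± 0.69, adjusted p = 0.011. Of 18 inflammatory genes, Il1b (fold 1.97 ± 0.13, adjusted p = 9e-08) and the chemokine Ccl4 passed. Ccl4 averaged 1354 and 285 TPM in the class and 41.5 and 50.3 in intermediate cells, was above 0 in 15 class cells, passed the filter only through the class, and was too sparse for the first comparison. Of 42 surface genes (backgrounds 1.95% higher and 0.781% lower), Selplg was higher (0.81 ± 0.20, adjusted p = 0.045) and the formyl peptide receptor Fpr1 lower, at 845 and 579 TPM against 1559 and 1292 (-1.02 ± 0.25, adjusted p = 0.0403).

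Of 16 other granule and immature-stage genes, 8 were lower than in intermediate cells (background 0.781%) and 0 higher, with a median fold of -0.87. Ifitm6 was at 1203 and 1393 TPM in intermediate cells (fold -2.89 ± 0.33, adjusted p = 0.000109). The 5 named lower genes were the stem cell antigen gene Ly6a, Adpgk, Hsd11b1, which regenerates active glucocorticoid, Tinagl1 and Lims1, an adaptor of integrin signalling. Ly6a averaged 21.2 and 8.3 TPM in the class against 176 and 142 in intermediate cells (fold -3.47 ± 0.66, adjusted p = 0.00649). Hsd11b1 averaged 52.2 and 37.1 TPM against 561 and 241; it, Tinagl1 and Lims1 passed the filter only through the intermediate cells. Adpgk had a fold of -3.03. All 5 were also lower in the class than in granule-gene-high cells in both replicates, for example Lims1 at 27.3 and 17 TPM against 303 and 263.

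Both fits have 1 residual degree of freedom and lean on the variance that limma takes from all genes, so that the number of called genes is unstable, while the levels above do not depend on it. Without limma's trend and robust options 0 genes were called in either comparison, with 369 higher and 346 lower in the first and 195 and 117 in the second at an unadjusted p below 0.05. With 2 pairs of averages, an exact two-sided permutation test of 1 gene could not give a p below 0.5.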

How the data were processed

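Single cells from 2 labelled replicates on 4 plates were profiled; 384 cells are labelled, of which 58 were not analysed here. The authors deposited 1 table of TPM values for 23420 genes in 326 cells, summing to 1000000 per cell. Per the submitters' processing notes it was made with RSEM and mm10; the aligner, annotation and versions were not given in the sources used here. TPM keeps no depth.

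Cells were classed by the rule, mean TPM was taken per class and replicate, and log2(mean TPM + 1) was fitted in R 4.3.3 by limma 3.58.1, using its trend and robust options and a replicate block (4 averages, 1 residual degree of freedom), with Benjamini-Hochberg adjustment over all genes tested, called at 0.05. The block is the replicate given by the labels, and both classes have cells in each replicate. Genes needed a mean TPM of at least 5 and a value above 0 in at least 10% of the cells compared, and the 30 genes of the rule were left out. Scripts used Python 3.11.15 and pandas 2.3.3. The fit was also run on simulated data, with both groups drawn from all neutrophils of a replicate and known folds set. That simulation held no class differences in depth or in TPM share, so it is no check of the calls given here.

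The members, lists and markers were chosen with earlier results of these data known, so counts over a list are descriptions. Of 487 symbols listed, 3 matched by an older name and 3 did not match. Genes were named by a rule: the 12 higher and 12 lower (5 and 5 in the second comparison) with the largest fold, an adjusted p below 0.05, the same sign on 4 plates, and a mean TPM of at least 20 and a value above 0 in at least 25% of cells of the higher class; the rule's genes and proposed markers; and from each list up to 4 called members with the largest fold and up to 2 abundant uncalled ones. Anxa1, Arg2, Btg2, Cass4, Ccl4, Ccrl2, Cxcl2, Fos, Junb, Lyz2, Nfkbia, Nr4a1, Osm, Tnf, Tuba1b and Zfp36 fall outside it and were chosen after their values were seen. Gene positions are from GENCODE M21 and promoters from RefSeq, both on GRCm38. Alternatives changed the pseudocount, filter, averaging, scaling, class thresholds, block and limma options, and left out doubtful cells. One result of the surface receptor lists is not reported here.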

Additional observations from a re-analysis of the deposited data

How the results depend on the processing

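The numbers of called genes moved with nearly every choice, and no count of them is firm. In the first comparison (159 higher, 105 lower) limma called 0 and 0 with no filter (555 and 811 at an unadjusted p below 0.05) and 0 and 0 without its trend and robust options (369 and 346). It called 374 and 178 with a stricter filter, 13 and 5 with a granule mean below 4, 12 and 4 with a neutrophil sum of at least 50000, 249 and 208 with averages per plate, and 53 and 22 without the 2 cells with B cell markers. Higher calls were 40 after the rescaling and 56 with averages matched on genes detected (cells above and below the median weighted equally). Lower calls were 53 and 172 with pseudocounts of 0.1 and 10, 1057 with averages of log values, 62 with a granule mean below 6 and 174 without cells with 3 or more monocyte markers. In the second comparison (60 higher, 24 lower) it called 0 and 0 with no filter (426 and 189) and 0 and 0 without the trend and robust options (195 and 117), 115 and 67 with the stricter filter, 19 and 8 below 4, 26 and 7 below 6, 94 and 47 matched on genes detected, 18 and 8 per plate, 24 and 10 without the cells with B cell markers, and 5 and 4 without those with monocyte markers. Lower calls were 109 with averages of log values, 80 after the rescaling and 43 without cells with 10% or more of TPM on Rn45s. Without the replicate block 194 genes were higher and 127 lower in the first comparison and 25 and 10 in the second. Leaving out a replicate leaves no residual degree of freedom, so these counts were not run. Alternatives that left out doubtful cells were chosen after seeing the data. The causes of these moves were not tested.

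Over the alternatives, of the values for 85 called genes in the first comparison 995 kept direction and call, 512 kept direction only and 2 reversed: Slfn2 (-0.029 with averages of log values) and Tuba1b (0.46 against non-cycling cells). For 39 called genes in the second, 432 kept direction and call and 225 kept direction only. Among genes not called, folds reversed for Ier2 (-0.16, log averages), Clec4e (-0.10 with log averages, -0.049 rescaled, -0.12 below 4, -0.21 matched on genes detected), Cd14 (-0.93 with log averages, -0.59 at a sum of 50000), Hp (-0.086 with log averages, -0.060 rescaled), Tnf (0.27, matched on genes detected) and Actb (-0.062 to 0.018 when either replicate was left out). The class held 25.8% to 26.9% of neutrophils when either replicate was left out, 18.6% with a granule mean below 4, 31.3% below 6, 22.6% with a sum of at least 50000 and 23.6% with fewer than 3 cell cycle genes above 0.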

Other observations

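Just outside the rule, 6 cells had a neutrophil sum from 12704 to 16516 TPM, under the 20000 required, and were not counted as neutrophils. Their granule means were 0.22, 1.06, 2.76, 0, 4.60 and 1.12, all below the threshold of the class. Csf3r and Fgl2 were above 0 in 6 of 6, Il1b in 5 of 6 with a median of 22030 TPM, and Egr1 in 5 of 6 with a median of 5272 TPM. S100a8 had a median of 1103 TPM in them.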
